A study of Mus musculus with 12 samples.

Results

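The 34 genes described here are responders to type I interferon: sensors of viral RNA, the transcription factors of the pathway, antiviral effectors, regulators of the ubiquitin-like protein ISG15 and genes of antigen processing. They were taken by gene symbol from a table of 24318 genes, and all 34 were found in it. The RNA came from immortalized mouse embryonic fibroblasts of genotype MafF-/-::MafG-/-::MafK-/-, so the cells of every group lack the 3 small Maf genes. Mock cells carry no further change named in the labels, and T-N2G cells also express T-N2G, a tethered heterodimer of Nrf2 and MafG. Each kind of cell was kept for 12 h with vehicle or with diethyl maleate (DEM, 100 µM), a glutathione-depleting electrophile. There are 4 groups of 3 libraries. The mock groups are called mock vehicle and mock DEM, and those with the heterodimer are called T-N2G vehicle and T-N2G DEM. How T-N2G was introduced, what drives it, and whether the cells are a clone or a pool are not given in the sources used here. As a check of the labels, Mafg stood at 0.356 ± 0.0273 and 0.608 ± 0.0397 FPKM (mean ± SD, n = 3, vehicle then DEM) in the mock groups against 94.8 ± 19.8 and 83.9 ± 15.5 in the T-N2G groups, and Nfe2l2, the Nrf2 gene, at 23.2 ± 2.37 and 27.3 ± 1.62 against 262 ± 48.9 and 243 ± 41.9. Maff and Mafk had 1.74 to 3.28 and 0.532 to 1.01 FPKM over the libraries, and counts per gene do not check the deletions. The labels do not say whether replicates are separate cultures, so p-values measure the spread between these libraries, which may be technical.

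Type I interferons (interferon alpha and beta) are secreted when a cell senses foreign nucleic acid. They bind the receptor IFNAR1-IFNAR2, whose kinases JAK1 and TYK2 phosphorylate STAT transcription factors. STAT2 and IRF9 are subunits of ISGF3, which binds the interferon-stimulated response element in promoters and switches on antiviral genes. Fibroblasts are classical producers of interferon beta, and cultured fibroblasts keep a low level of many of these genes without infection.

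Levels are given as FPKM, the authors' fragment values scaled to transcript length and library size, which can be compared between genes. Library values are listed in the order of replicates 1, 2 and 3. Group means are given ± SD (n = 3), first mock vehicle and mock DEM, then the same for T-N2G cells. Fold changes are log2 ± SE from the fragment counts, and a call is an edgeR quasi-likelihood test with a Benjamini-Hochberg adjusted p below 0.05 over the 12469 genes tested. The word block marks the same test with the replicate number added as a factor. Libraries with the same number deviate together across genes, so the block takes out a spread that is shared between the groups. Values without mention of the block come from the fit without it.

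The interferon-stimulated response element is shown first, since it is what many of these genes have in common. RefSeq (GRCm38.p6) had a promoter entry, 250 bases before to 50 after the start, for 26 of the 34 genes. The core searched for was GAAA, any 2 bases and GAAA again, on both strands. It was in the entry of 12 of these 26 genes (46.2%), and in 3.44% of all promoters of that length, 3.99% of genes and in 3.54% of the tested genes with an entry. Of the 12 genes, Ddx58, Ifitm3, Ifih1 and Eif2ak2 had their matches only after the start. The letters TGACNNNGC, the core of the antioxidant response element that Nrf2 and small Maf proteins bind, were in the entries of Irf7, Oasl2, Rsad2 and Ifi44. That is 15.4% of the 26 genes, against 12.4% of promoters, 14.0% of genes and 17.1% of tested genes, and none of their letters overlapped a match of the first motif. A match describes letters and not a bound site.

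Before the start of transcription 8 of the 12 genes carried a match. The stretches of 7 of them follow, leaving out Gbp2, whose match lies in an annotated transcript, with 20 flanking bases where the entry reaches. They are written from the strand of the gene, 5′ to 3′, and capitals mark this motif as GAAA or, on the other strand, TTTC repeats with the 2 bases between them, which may overlap. In GRCm38.p6 they lie at chr4:156200855-156200916 (minus strand, Isg15), chr5:120907526-120907565 (minus strand, Oas1a), chr8:71537567-71537622 (minus strand, Bst2), chr10:128270256-128270305 (plus strand, Stat2), chr12:26456543-26456592 (minus strand, Rsad2), chr19:34583353-34583436 (plus strand, Ifit3) and chr19:34640765-34640833 (plus strand, Ifit1).
Isg15: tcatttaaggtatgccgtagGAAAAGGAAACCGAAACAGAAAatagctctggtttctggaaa
Oas1a: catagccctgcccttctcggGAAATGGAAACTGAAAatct
Bst2: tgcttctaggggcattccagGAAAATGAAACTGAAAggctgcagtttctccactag
Stat2: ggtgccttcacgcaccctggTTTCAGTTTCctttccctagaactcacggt
Rsad2: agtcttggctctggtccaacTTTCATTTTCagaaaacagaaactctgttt
Ifit3: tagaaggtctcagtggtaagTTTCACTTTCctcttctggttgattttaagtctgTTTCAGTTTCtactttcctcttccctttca
Ifit1: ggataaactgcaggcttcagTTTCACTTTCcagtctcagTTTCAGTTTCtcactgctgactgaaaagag
Isg15 held 3 overlapping matches in 1 run, and Oas1a and Bst2 held 2 each in the same manner. Ifit3 and Ifit1 held 2 separate matches each.

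The 34 genes ranged from abundant to barely detected. Ifitm3, which blocks viral fusion in endosomes, averaged 121 FPKM over the 12 libraries, and Bst2, the tetherin that holds budding virions at the cell surface, 51.0. Irf1 (16.5), Eif2ak2 (15.6), Trim25 (12.2), Ddx58 (12.1) and Ifi35 (10.8) were the other genes above 10 FPKM. From 1 to 10 FPKM lay 12 genes, and 15 lay below 1, down to Mx1 at 0.0333. The filter on low counts passed 30 of the 34. Oas1a (62 fragments in the 12 libraries together), Mx1 (21), Ifi44 (47) and Psmb9 (66) were not tested. A gene can pass this filter through the group in which it is high, so counts over the 30 tested genes describe those genes and not the whole set.

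Libraries stood apart within the groups. Mock vehicle replicate 3 had the highest FPKM of the 12 libraries for 33 of the 34 genes, and for 29 of the 30 tested ones, against 7.76% of all tested genes. The exception was Irf1, highest in T-N2G vehicle replicate 2. Replicate 3 was the highest library of its group in all 4 groups for 15 of the 30 tested genes, against 8.08% of tested genes, and in 3 of the 4 groups for 9 more. For each gene the log2 deviation from its own mean over the 12 libraries was taken, and its median over the 30 genes describes a library. It was -0.27, 0.30 and 1.15 in mock vehicle, and -0.32, -0.18 and 0.42 in mock DEM. In the T-N2G groups it was -0.37, 0.16 and 0.40 with vehicle, and -0.68, -0.35 and -0.17 with DEM. Replicate 1 was the lowest and replicate 3 the highest library by this measure in each group, while the median over all tested genes lay between -0.00 and 0.01. The FPKM of the 34 genes summed to 581 in mock vehicle replicate 3, against 246 and 320 in the other mock vehicle libraries, and was lowest in T-N2G DEM replicate 1 at 191. The labels give replicate 3 of every group a library code from another run of numbers than replicates 1 and 2. With 1 library per group that series allows no test of its own, and the others are also given alone below.

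**Figure D1:**
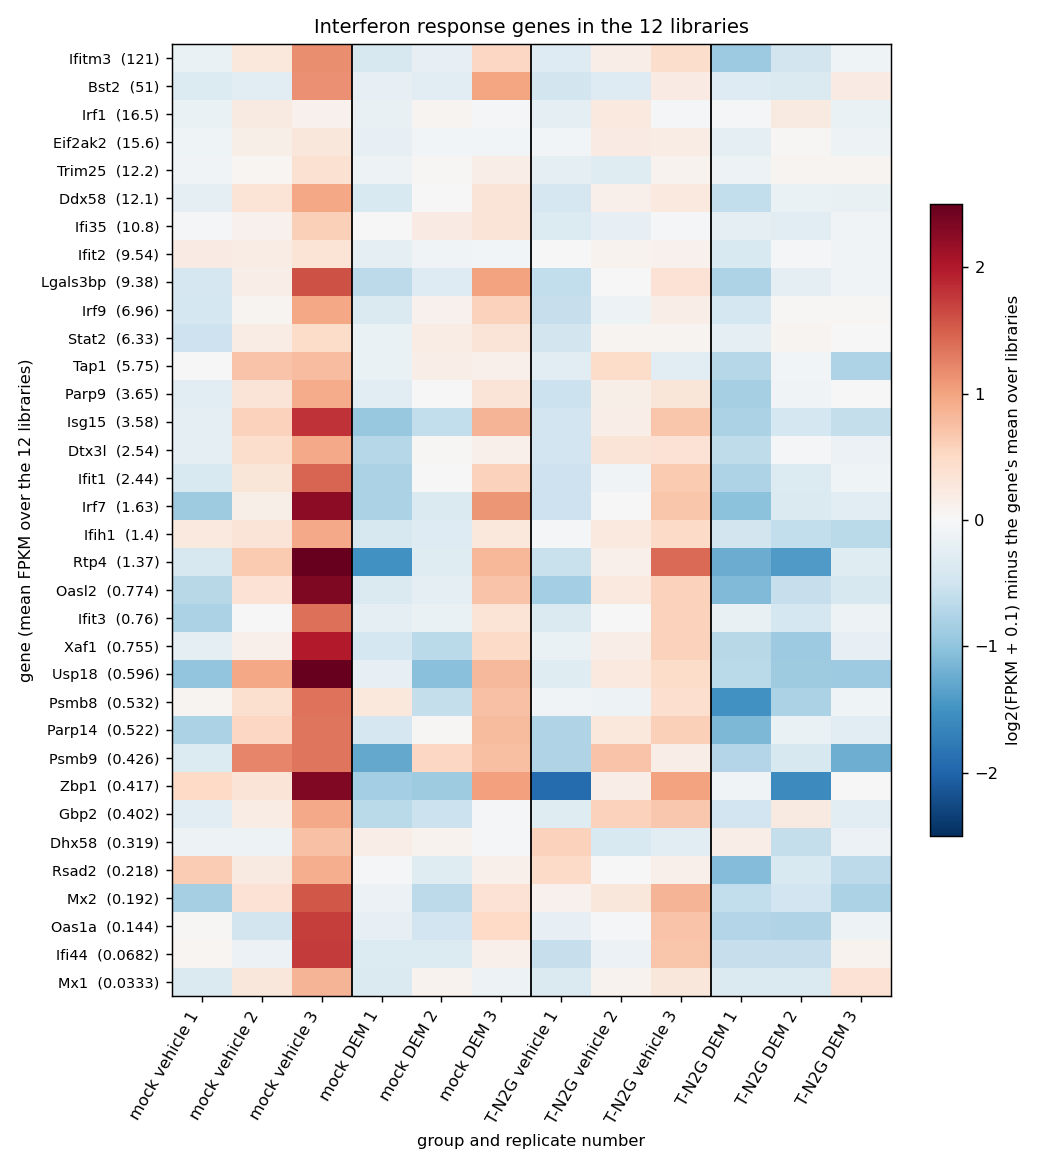
Each row is 1 of the 34 genes, ordered by mean FPKM (in brackets), and each column 1 of the 12 libraries in 4 groups. Colour shows log2(FPKM + 0.1) minus the mean of the gene over the libraries, red for higher and blue for lower. The mock vehicle replicate 3 column is red in nearly every row, and the T-N2G DEM columns are mostly blue.

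**Figure D2:**
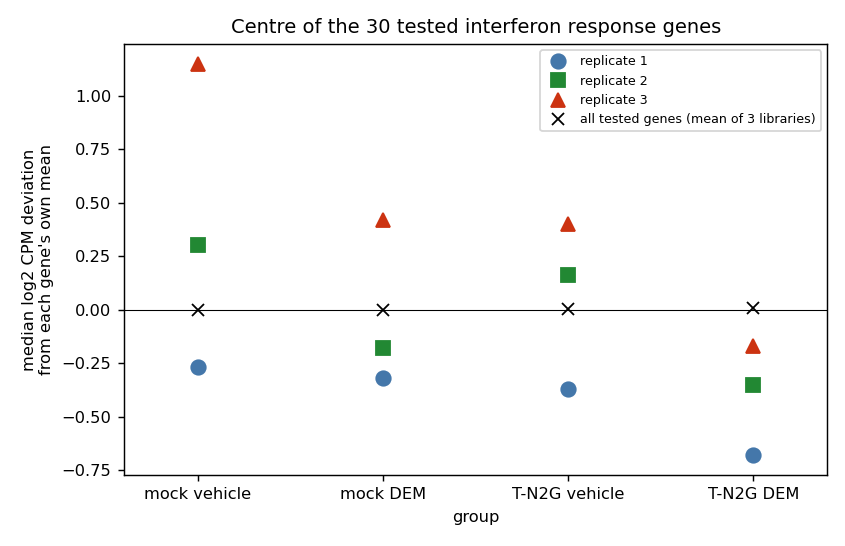
The x axis gives the 4 groups and the y axis the median, over the 30 tested genes, of the log2 CPM deviation of each gene from its own mean over 12 libraries. Symbols are the 3 replicates and crosses the same over all tested genes, averaged over the 3 libraries. Replicate 3 lies above replicate 2 and replicate 2 above replicate 1 in each group, and mock vehicle replicate 3 stands at 1.15.

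The inducers of the pathway were next examined. Of 23 interferon gene symbols listed, 21 were in the table and 17 of these had no fragment in any library. Il28a and Il28b, which were not found, are older symbols of Ifnl2 and Ifnl3, which were. Besides type I interferons the list holds Ifng, Ifnl2 and Ifnl3. The highest count of an interferon gene in a library was 2, the highest level 0.155 FPKM, and together they had 15 fragments in the 12 libraries. Ifnb1, the interferon beta gene, had 1 fragment in T-N2G vehicle replicate 3 and 1 in T-N2G DEM replicate 1. The others with a fragment were Ifna13, Ifnk and Ifnz. A count of 0 allows up to 3 fragments, or 0.130 to 0.159 CPM in these libraries (counting error only), and no interferon gene could be tested. The receptor and its kinases were expressed in every library, as follows.

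Ifnar1 stood at 14.4, 16.2 and 15.7 FPKM in mock vehicle and 17.1, 18.2 and 17.9 in mock DEM, and at 14.0, 15.3 and 15.5 in T-N2G vehicle and 16.5, 17.5 and 16.7 in T-N2G DEM. All 3 DEM libraries lay above all 3 vehicle libraries in both kinds of cell. DEM over vehicle was log2 0.20 ± 0.06, adjusted p = 0.057 in mock cells and log2 0.18 ± 0.06, adjusted p = 0.0762 in T-N2G cells, and Ifnar1 was called higher with the block (adjusted p = 0.000638 and 0.00151). Ifnar2, the second chain of the receptor, had group means of 24.4 ± 1.29, 24.9 ± 0.472, 26.7 ± 1.16 and 25.1 ± 1.96 FPKM and was called in no comparison. Jak1 was the most abundant gene of the receptor list, with group means of 68.6 ± 0.391, 64.8 ± 0.5004, 73.2 ± 3.14 and 69.3 ± 2.71 FPKM, and was not called either.

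Tyk2, the kinase bound to IFNAR1, read 5.07, 6.26 and 6.07 FPKM in mock vehicle and 8.29, 9.21 and 7.77 in mock DEM. In T-N2G cells it read 5.17, 6.90 and 5.49 with vehicle and 8.18, 8.85 and 6.86 with DEM. It rose with DEM in mock cells (log2 0.54 ± 0.13, adjusted p = 0.0209) and in T-N2G cells (log2 0.44 ± 0.13, adjusted p = 0.0375). The mock call was lost without mock vehicle replicate 1 (0.0697), mock DEM replicate 1 (0.0539) or mock DEM replicate 2 (0.0682), the numbers being adjusted p values. The T-N2G call was lost without mock vehicle replicate 3 (0.0531), mock DEM replicate 1 (0.0554), T-N2G vehicle replicate 1 (0.135), T-N2G vehicle replicate 3 (0.118), T-N2G DEM replicate 1 (0.102) or T-N2G DEM replicate 2 (0.113). Both held with the block (adjusted p = 4.24e-05 and 0.000203). Of the 10 genes of this list, all tested, DEM called 1 higher in each kind of cell, where 7.76% of all tested genes were called higher in mock and 10.1% in T-N2G cells. With the block 4 were higher in mock and 3 in T-N2G cells, against 20.9% and 22.8% of all tested genes. The further genes called higher were Ifngr1 in both and Jak2 in mock cells. The feedback inhibitor Socs3 was lower in both with the block (adjusted p = 0.0057 and 0.00224). No gene of the list was called between T-N2G and mock cells in either fit.

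Among 14 genes that sense nucleic acid or induce interferon, all tested, DEM called 1 higher in mock cells and 2 in T-N2G cells, and 0 lower. Of all tested genes 7.76% were called higher and 6.18% lower in mock cells, and 10.1% and 7.55% in T-N2G cells. With the block 5 of the 14 were higher and 0 lower in each. The shares of all tested genes were then 20.9% higher and 21.9% lower in mock cells, and 22.8% and 22.2% in T-N2G cells. Among the genes called higher with the block were Trim56 in both, Ticam1 and Tmem173 in mock cells, and Traf3 and Mavs in T-N2G cells. Myd88, the adaptor of most Toll-like receptors, rose from 13.1, 11.6 and 12.9 to 16.8, 16.9 and 16.6 FPKM in mock cells (log2 0.42 ± 0.07, adjusted p = 0.00398) and from 12.4, 12.3 and 11.0 to 16.5, 16.1 and 15.8 in T-N2G cells (log2 0.44 ± 0.07, adjusted p = 0.00215). Tbk1, the kinase that activates IRF3 and the most abundant gene of this list, stood between 17.1 and 18.7 FPKM in the 9 libraries outside T-N2G DEM and at 22.9, 23.2 and 25.04 in T-N2G DEM. It rose with DEM in T-N2G cells (log2 0.37 ± 0.05, adjusted p = 0.00107) and under DEM its level in T-N2G cells exceeded that in mock cells (log2 0.35 ± 0.05, adjusted p = 0.00252). The difference of its DEM effects was log2 0.32 ± 0.08, adjusted p = 0.185, called only with the block (adjusted p = 0.0112). Irf3, the factor that switches on the interferon beta gene, had group means of 13.6 ± 0.535, 15.2 ± 0.467, 13.2 ± 0.571 and 13.5 ± 0.533 FPKM. It was called only with the block, higher with DEM in mock cells (adjusted p = 0.0267) and lower in T-N2G cells under DEM when set against mock cells (adjusted p = 0.0465).

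DEM was compared with vehicle in each kind of cell to ask what the electrophile does to the interferon response genes. In the fits on all 12 libraries, interferon response genes that were called were all lower with DEM. In mock cells 1 of the 30 tested genes fell (Ifit2) and 0 rose, while 6.18% of all tested genes were called lower and 7.76% higher. With the block 18 fell and 0 rose, while 21.9% of all tested genes were called lower and 20.9% higher. In T-N2G cells 2 fell (Ifih1 and Rsad2) and 0 rose, against 7.55% and 10.1% of all tested genes, and with the block 15 fell and 0 rose, against 22.2% and 22.8%. The block called 13 genes lower in both kinds of cell, against 15.8% of all tested genes, and 20 in at least 1, against 28.3%. When each of the 12 libraries was left out in turn, 7 of the 18 calls were kept every time in mock cells (Ifit2, Ddx58, Ifih1, Dtx3l, Rtp4, Ifitm3 and Eif2ak2) and 5 of the 15 in T-N2G cells (Ifit2, Ifih1, Rtp4, Ifitm3 and Eif2ak2).

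The median log2 fold change of the 30 tested genes was -0.52 for mock and -0.51 for T-N2G cells (-0.58 and -0.60 over the 34 with no filter), while the median of all tested genes lay within 0.01 of 0. Between libraries that share a replicate number, 18 of the 30 genes were lower with DEM in all 3 pairs of mock cells, against 34.5% of tested genes, and 21 in those of T-N2G cells, against 35.2%. Across the 6 pairs of both kinds of cell 15 were lower in each, against 25.0%. The median difference of the genes was -0.07, -0.48 and -0.69 in the 3 mock pairs and -0.29, -0.39 and -0.53 in the T-N2G pairs. The mock result moved with mock vehicle replicate 3. Without that library the median was -0.03, and -0.24 with the block, where 7 genes were called lower. In T-N2G cells the count with the block was 6 without T-N2G DEM replicate 3, 7 without T-N2G vehicle replicate 2 and 10 without T-N2G vehicle replicate 1. In replicates 1 and 2 alone 0 genes were called in either kind of cell, with medians of -0.34 and -0.33. With the block 10 were called lower in each, beside 1 higher in T-N2G cells (Trim25). For fits that leave libraries out, the share of all tested genes called is not given, so their counts are not set against other genes. In bulk RNA, fewer cells with a transcript and less transcript per cell cannot be told apart.

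**Figure D3:**
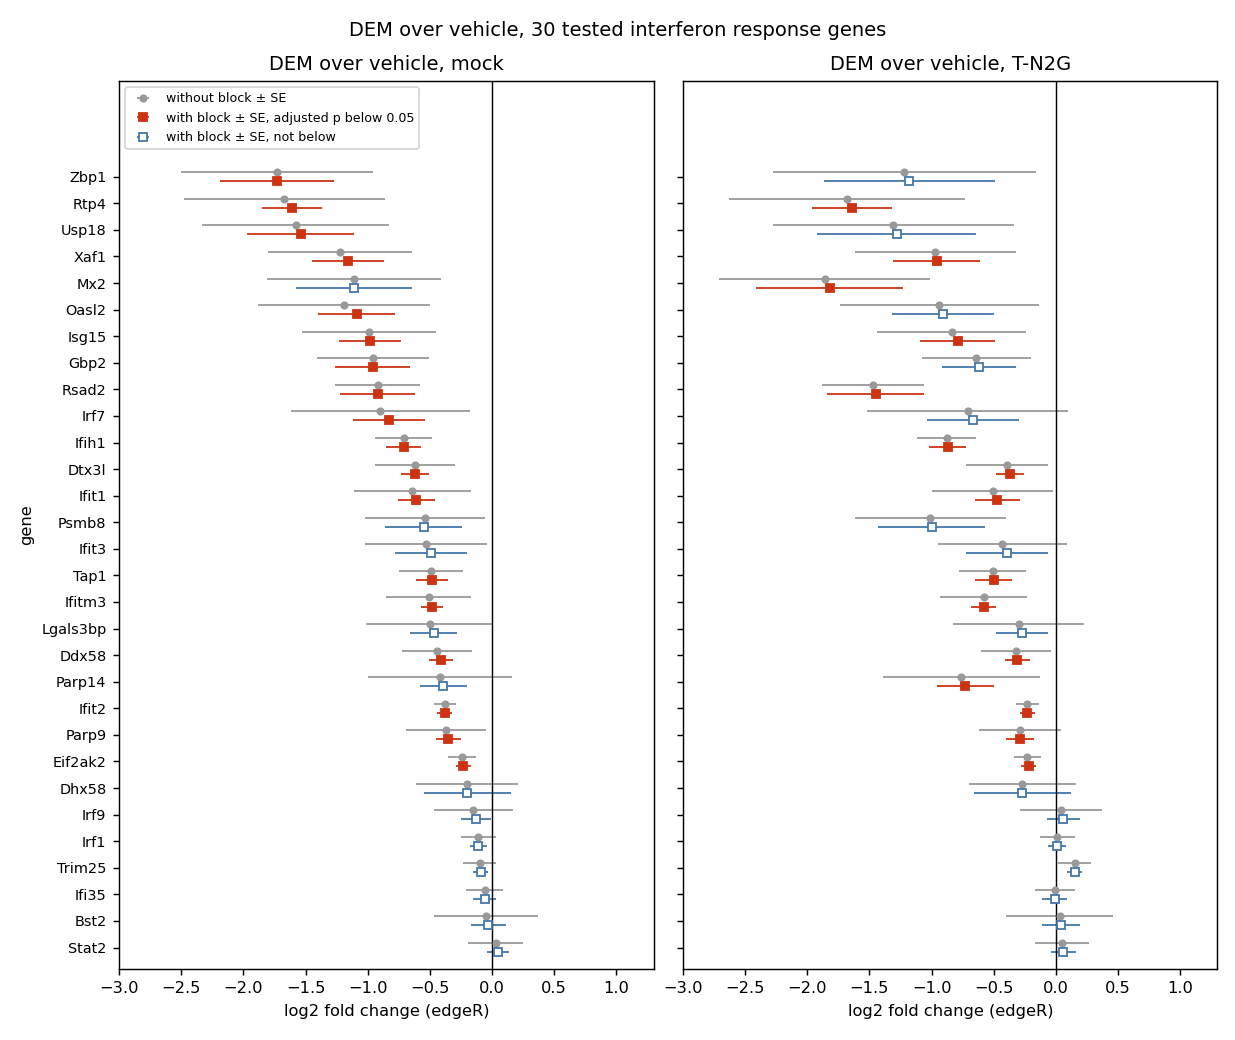
The x axis gives the log2 fold change of DEM over vehicle in mock cells (left) and T-N2G cells (right) for the 30 tested genes on the y axis, ordered by the value with the block in mock cells. Grey circles are the fit without the block and squares the fit with it (red where the adjusted p is below 0.05), with bars of ± SE. With the block 18 genes in mock and 15 in T-N2G cells are red, all to the left of 0.

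Among the sensors of viral RNA, Ifih1 encodes MDA5, the sensor of long double-stranded RNA. It stood at 1.57, 1.68 and 2.65 FPKM in mock vehicle and 0.979, 1.03 and 1.60 in mock DEM, and at 1.27, 1.58 and 1.88 in T-N2G vehicle and 0.938, 0.825 and 0.795 in T-N2G DEM. All T-N2G DEM libraries lay below all 9 others, while mock vehicle and mock DEM overlapped. Ifih1 fell with DEM in T-N2G cells (log2 -0.88 ± 0.24, adjusted p = 0.0274, lower in 3 of 3 pairs). This call was lost without T-N2G vehicle replicate 2 (adjusted p = 0.0574) or 3 (0.0944), or T-N2G DEM replicate 1 (0.0563), 2 (0.0708) or 3 (0.0840). With the block it was kept in each of 12 leave-outs (adjusted p = 0.000194 in full). In mock cells the difference was log2 -0.71 ± 0.23 (adjusted p = 0.0629), or -0.71 ± 0.14 with the block (adjusted p = 0.000488), and its pairs differed by -0.69, -0.70 and -0.73.

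Ddx58 encodes RIG-I, the sensor of RNA with a free triphosphate end. Its values were 9.71, 14.7 and 22.7 FPKM in mock vehicle and 8.80, 11.5 and 14.4 in mock DEM, then 8.61, 12.6 and 13.7 and 7.55, 10.2 and 10.2 in T-N2G cells with vehicle and DEM. The groups overlapped, and replicate 1 was the lowest library in each. DEM over vehicle was log2 -0.44 ± 0.28 (adjusted p = 0.32), or -0.41 ± 0.10 with the block (adjusted p = 0.00269) in mock cells. In T-N2G cells it was log2 -0.32 ± 0.28 (adjusted p = 0.47), or -0.31 ± 0.10 with the block (adjusted p = 0.0215). Dhx58, which encodes LGP2, a related helicase without the signalling domain, was expressed at only 0.319 FPKM on average, with group means of 0.372 ± 0.173, 0.325 ± 0.0318, 0.318 ± 0.165 and 0.263 ± 0.0936, and was called in neither fit.

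Of the 4 transcription factors Irf7 was called, in mock cells and with the block. Irf7, which drives the interferon alpha genes, had the widest range between libraries of the 4. It stood at 0.636, 1.40 and 6.30 FPKM in mock vehicle, 0.687, 0.949 and 2.83 in mock DEM, 0.844, 1.26 and 2.098 in T-N2G vehicle and 0.566, 0.950 and 1.03 in T-N2G DEM. Mock vehicle replicate 3 was at 6.30, more than any other library, and replicate 3 was the highest of each group. In mock cells DEM over vehicle was log2 -0.90 ± 0.72 (adjusted p = 0.435), or -0.83 ± 0.29 with the block (adjusted p = 0.0296), but the pair of replicates 1 went the other way (log2 differences 0.16, -0.57 and -1.15). Without mock vehicle replicate 3 the difference was 0.55, and 0.02 with the block. In T-N2G cells it was -0.71 ± 0.81 and not called in either fit (adjusted p = 0.158 with the block).

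The ISGF3 subunits and Irf1 were called with DEM in neither fit. Irf9 had group means of 8.30 ± 4.29, 7.42 ± 2.39, 5.98 ± 1.49 and 6.14 ± 1.1 FPKM, and DEM differences of -0.15 ± 0.32 in mock and 0.04 ± 0.33 in T-N2G cells. Stat2 stood at 6.64 ± 2.14, 6.79 ± 1.13, 5.85 ± 1.17 and 6.05 ± 0.641 FPKM, with DEM differences of 0.03 ± 0.22 and 0.05 ± 0.22. Irf1, which is driven by other signals besides type I interferon, was the steadiest of the 34, with 1.38-fold between its highest and lowest library. It read 14.7, 19.1 and 17.6 FPKM in mock vehicle, 14.4, 17.3 and 15.8 in mock DEM, 14.1, 19.4 and 15.9 in T-N2G vehicle and 15.8, 19.3 and 14.7 in T-N2G DEM. Replicate 2 was its highest library in every group, and DEM differences were -0.11 ± 0.14 and 0.01 ± 0.14.

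The IFIT proteins bind viral RNA and block its translation. Ifit2 was the one gene called in mock cells without the block. It stood at 10.9, 10.8 and 12.0 FPKM in mock vehicle and 8.05, 8.89 and 8.99 in mock DEM, and at 9.37, 10.1 and 10.2 in T-N2G vehicle and 7.22, 9.16 and 8.86 in T-N2G DEM. All DEM libraries lay below all vehicle libraries of the same cells, with replicates close together. Ifit2 fell with DEM in mock cells (log2 -0.38 ± 0.09, adjusted p = 0.0188), a call that was lost without mock vehicle replicate 3 (adjusted p = 0.0684) or mock DEM replicate 1 (0.0728). With the block the adjusted p was 9.47e-05. In T-N2G cells the difference was log2 -0.23 ± 0.09 (adjusted p = 0.101), or -0.23 ± 0.06 with the block (adjusted p = 0.00527). The block called Ifit2 lower in both kinds of cell in each of 12 leave-outs.

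Ifit1 and Ifit3 varied more between replicates. Ifit1 read 1.65, 2.73 and 6.16 FPKM in mock vehicle, 1.22, 2.22 and 3.30 in mock DEM, 1.503, 2.04 and 3.52 in T-N2G vehicle and 1.25, 1.71 and 2.02 in T-N2G DEM. Replicate 3 was its highest library in every group and the groups overlapped. Its DEM difference was log2 -0.64 ± 0.47 (adjusted p = 0.389), or -0.61 ± 0.15 with the block (adjusted p = 0.00426) in mock cells, or 0.03 without mock vehicle replicate 3 and without the block. The T-N2G difference was log2 -0.51 ± 0.49 (adjusted p = 0.515), or -0.47 ± 0.18 with the block (adjusted p = 0.0384). Ifit3 had group means of 1.00 ± 0.840, 0.696 ± 0.182, 0.767 ± 0.289 and 0.572 ± 0.0730 FPKM and was not called. The genome holds a near-identical relative, Ifit3b, so its fragments may be split between the copies. Ifit2, Ifit3 and Ifit1 are neighbours in the genome.

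Among the antiviral enzymes, Rsad2 had the largest of the 3 changes called without the block, at a low level. Rsad2 encodes viperin, which makes a chain-terminating nucleotide. It stood at 0.360, 0.247 and 0.457 FPKM in mock vehicle, 0.190, 0.140 and 0.226 in mock DEM, 0.313, 0.195 and 0.225 in T-N2G vehicle and 0.0409, 0.129 and 0.0897 in T-N2G DEM, the last from 3, 10 and 6 fragments. In both kinds of cell the DEM libraries lay below the vehicle libraries, and the T-N2G DEM libraries below those of every other group. Rsad2 fell with DEM in T-N2G cells (log2 -1.47 ± 0.41, adjusted p = 0.0279, 2.76-fold, lower in 3 of 3 pairs). The call was lost without T-N2G vehicle replicate 1 (adjusted p = 0.101) or 3 (0.0551), or T-N2G DEM replicate 1 (0.0987) or 3 (0.0720). With the block the adjusted p was 0.00598. In mock cells the difference was log2 -0.92 ± 0.34 (adjusted p = 0.0914), or -0.92 ± 0.30 with the block (adjusted p = 0.0193).

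Eif2ak2 encodes PKR, the kinase that stops translation on sensing double-stranded RNA. It differed little between libraries, with 14.4, 17.2 and 18.96 FPKM in mock vehicle, 13.5, 14.7 and 14.8 in mock DEM, 14.8, 17.9 and 17.6 in T-N2G vehicle and 13.2, 15.7 and 14.1 in T-N2G DEM. The groups overlapped but each pair was lower with DEM. DEM over vehicle was log2 -0.24 ± 0.11 (adjusted p = 0.167), or -0.23 ± 0.06 with the block (adjusted p = 0.00314) in mock cells and log2 -0.23 ± 0.11 (adjusted p = 0.178), or -0.22 ± 0.06 with the block (adjusted p = 0.00414) in T-N2G cells. The oligoadenylate synthetase family was low. Oasl2 stood at 0.321, 0.778 and 3.35 FPKM in mock vehicle, 0.431, 0.483 and 1.02 in mock DEM, 0.283, 0.714 and 0.920 in T-N2G vehicle and 0.217, 0.362 and 0.420 in T-N2G DEM. Its mock difference was log2 -1.19 ± 0.69 (adjusted p = 0.271), or -1.09 ± 0.31 with the block (adjusted p = 0.00926), with pairs at 0.39, -0.66 and -1.68, and it was 0.23 without mock vehicle replicate 3. In T-N2G cells it was -0.94 ± 0.80 and not called with the block (adjusted p = 0.0825). Oas1a, with a near-identical relative in Oas1g, had 0.118, 0.0553 and 0.611 FPKM in mock vehicle and no group mean above 0.261.

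The remaining effectors divided by abundance. Ifitm3, the most abundant of the 34, read 101, 136 and 253 FPKM in mock vehicle, 85.5, 98.0 and 160.4 in mock DEM, 90.7, 126 and 153 in T-N2G vehicle and 59.6, 82.5 and 105 in T-N2G DEM. Replicate 3 was the highest and replicate 1 the lowest in each group, and each of the 6 pairs was lower with DEM. The difference was log2 -0.51 ± 0.34 (adjusted p = 0.346), or -0.48 ± 0.09 with the block (adjusted p = 0.000633) in mock cells, and log2 -0.58 ± 0.35 (adjusted p = 0.274), or -0.58 ± 0.10 with the block (adjusted p = 0.000154) in T-N2G cells. With the block both calls were kept in each of 12 leave-outs. Bst2 behaved otherwise, with 37.4, 39.3 and 105 FPKM in mock vehicle and 41.0, 39.2 and 94.3 in mock DEM, and 34.2, 37.8 and 54.8 and 38.1, 36.6 and 54.8 in T-N2G cells. Replicate 3 was again the highest, and the DEM differences were -0.05 ± 0.42 and 0.03 ± 0.43, called in neither fit. Zbp1, a sensor of Z-form nucleic acid, had 104 fragments in all and group means of 0.861 ± 0.799, 0.295 ± 0.327, 0.327 ± 0.328 and 0.187 ± 0.140 FPKM. In mock cells its DEM difference was log2 -1.73 ± 0.77 (adjusted p = 0.154), or -1.73 ± 0.46 with the block (adjusted p = 0.00554).

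The MX proteins are dynamin-like GTPases that trap viral capsids. Mx2 stood at 0.0447, 0.231 and 0.653 FPKM in mock vehicle, 0.132, 0.0618 and 0.231 in mock DEM, 0.176, 0.210 and 0.363 in T-N2G vehicle and 0.0662, 0.0834 and 0.0483 in T-N2G DEM. In T-N2G cells all DEM libraries were below all vehicle libraries, and the difference was log2 -1.86 ± 0.85 (adjusted p = 0.154), or -1.82 ± 0.59 with the block (adjusted p = 0.0188). In mock cells it was -1.11 ± 0.70 and not called with the block (adjusted p = 0.0639), with pairs at 0.99, -1.39 and -1.34. Mx1 was at 0 in 5 libraries and reached 0.131 FPKM in mock vehicle replicate 3. Gbp2, a guanylate-binding GTPase, had group means of 0.510 ± 0.270, 0.259 ± 0.0886, 0.511 ± 0.201 and 0.325 ± 0.112 FPKM and a mock difference of log2 -0.96 ± 0.45 (adjusted p = 0.176), or -0.96 ± 0.30 with the block (adjusted p = 0.0173).

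ISG15 is a ubiquitin-like protein attached to other proteins after interferon, and USP18 removes it and quiets the receptor. Isg15 stood at 2.53, 4.50 and 10.7 FPKM in mock vehicle, 1.51, 1.92 and 5.45 in mock DEM, 2.13, 3.39 and 4.92 in T-N2G vehicle and 1.69, 2.19 and 1.95 in T-N2G DEM. Each of the 6 pairs was lower with DEM, by -0.69, -1.16 and -0.95 in mock and -0.30, -0.60 and -1.26 in T-N2G cells, but the groups overlapped. Its DEM difference was log2 -0.99 ± 0.54 (adjusted p = 0.248), or -0.98 ± 0.25 with the block (adjusted p = 0.0043) in mock cells. The T-N2G difference was log2 -0.84 ± 0.60 (adjusted p = 0.366), or -0.79 ± 0.30 with the block (adjusted p = 0.0416). Usp18 read 0.158, 0.892 and 2.84 FPKM in mock vehicle, 0.342, 0.146 and 0.791 in mock DEM, 0.311, 0.505 and 0.605 in T-N2G vehicle and 0.219, 0.177 and 0.171 in T-N2G DEM, 19.4-fold between the highest and lowest library. In mock cells its difference was log2 -1.58 ± 0.75 (adjusted p = 0.179), or -1.54 ± 0.43 with the block (adjusted p = 0.00813), although the pair of replicates 1 was higher with DEM by 0.88. In T-N2G cells the DEM libraries lay below the vehicle libraries, with -1.31 ± 0.97 and an adjusted p of 0.114 with the block.

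Parp9 and Dtx3l encode partners in an ADP-ribosyltransferase and ubiquitin ligase complex, and their genes overlap head to head on opposite strands. The strand setting of the counting is not given in the sources used here, so fragments of the overlap may be shared. Dtx3l stood at 2.06, 3.29 and 4.74 FPKM in mock vehicle, 1.44, 2.46 and 2.64 in mock DEM, 1.70, 3.05 and 3.14 in T-N2G vehicle and 1.51, 2.34 and 2.18 in T-N2G DEM. Its DEM difference was log2 -0.62 ± 0.32 (adjusted p = 0.22), or -0.62 ± 0.11 with the block (adjusted p = 0.000201) in mock cells and log2 -0.39 ± 0.33 (adjusted p = 0.45), or -0.37 ± 0.11 with the block (adjusted p = 0.0122) in T-N2G cells. Parp9 had group means of 4.62 ± 1.94, 3.57 ± 0.789, 3.52 ± 1.03 and 2.88 ± 0.841 FPKM. Its differences were log2 -0.37 ± 0.32 (adjusted p = 0.467), or -0.35 ± 0.10 with the block (adjusted p = 0.0118) in mock cells and log2 -0.29 ± 0.33 (adjusted p = 0.578), or -0.29 ± 0.11 with the block (adjusted p = 0.0495) in T-N2G cells. Parp14, a mono-ADP-ribosyltransferase, had group means of 0.734 ± 0.538, 0.545 ± 0.283, 0.509 ± 0.257 and 0.301 ± 0.130 FPKM. Its T-N2G difference was log2 -0.76 ± 0.63 (adjusted p = 0.44), or -0.73 ± 0.23 with the block (adjusted p = 0.0154), and in mock cells it was not called (adjusted p = 0.107 with the block). Trim25, the ubiquitin ligase that acts with RIG-I, had DEM differences of -0.10 ± 0.13 and 0.15 ± 0.13. It was not called in the fits on all 12 libraries, with an adjusted p of 0.0521 in T-N2G cells with the block. In replicates 1 and 2 alone with the block it was called higher with DEM in T-N2G cells (log2 0.24, adjusted p = 0.00962). With the block and 1 library left out it stayed uncalled there in 10 of 12 fits.

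Antigen processing genes sit side by side in the histocompatibility region as Psmb9, Tap1 and Psmb8. Tap1, the peptide transporter, stood at 5.40, 9.04 and 9.42 FPKM in mock vehicle, 4.85, 6.12 and 6.0 in mock DEM, 4.51, 7.57 and 4.50 in T-N2G vehicle and 3.29, 5.19 and 3.16 in T-N2G DEM. Its DEM difference was log2 -0.49 ± 0.26 (adjusted p = 0.232), or -0.48 ± 0.13 with the block (adjusted p = 0.00776) in mock cells. The T-N2G difference was log2 -0.51 ± 0.27 (adjusted p = 0.218), or -0.50 ± 0.15 with the block (adjusted p = 0.0106). The immunoproteasome genes Psmb8 and Psmb9 had group means of 0.821 ± 0.451, 0.561 ± 0.285, 0.499 ± 0.133 and 0.248 ± 0.164 FPKM, and of 0.732 ± 0.421, 0.419 ± 0.297, 0.393 ± 0.229 and 0.161 ± 0.0710. Psmb8 was not called, with differences of -0.54 ± 0.48 in mock and -1.01 ± 0.61 in T-N2G cells.

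The last genes have less settled antiviral roles. Rtp4, a receptor-trafficking protein, had the widest range of the genes with fragments in every library, 25.3-fold. It stood at 0.653, 1.46 and 6.29 FPKM in mock vehicle, 0.249, 0.702 and 1.66 in mock DEM, 0.571, 0.987 and 2.56 in T-N2G vehicle and 0.322, 0.270 and 0.705 in T-N2G DEM. Each of the 6 pairs was lower with DEM, by -1.18, -0.99 and -1.88 in mock and -0.70, -1.64 and -1.76 in T-N2G cells. The difference was log2 -1.67 ± 0.81 (adjusted p = 0.194), or -1.61 ± 0.24 with the block (adjusted p = 6.47e-05) in mock cells and log2 -1.68 ± 0.95 (adjusted p = 0.251), or -1.64 ± 0.32 with the block (adjusted p = 0.000584) in T-N2G cells, and with the block both calls were kept in each of 12 leave-outs. Xaf1, a pro-apoptotic factor, read 0.512, 0.697 and 2.76 FPKM in mock vehicle, 0.433, 0.352 and 0.908 in mock DEM, 0.550, 0.714 and 0.979 in T-N2G vehicle and 0.347, 0.286 and 0.529 in T-N2G DEM. Its differences were log2 -1.22 ± 0.58 (adjusted p = 0.186), or -1.16 ± 0.29 with the block (adjusted p = 0.0036) in mock cells and log2 -0.97 ± 0.65 (adjusted p = 0.334), or -0.96 ± 0.35 with the block (adjusted p = 0.0344) in T-N2G cells. Lgals3bp, a secreted glycoprotein, had group means of 13.5 ± 10.2, 9.497 ± 6.29, 8.04 ± 2.62 and 6.53 ± 1.53 FPKM and was not called. Ifi35 was called with DEM in neither fit (log2 -0.06 ± 0.15 and -0.01 ± 0.16), and Ifi44 had a mean of 0.162 ± 0.204 FPKM (SD, n = 3) in mock vehicle and less in the other groups.

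**Figure D4:**
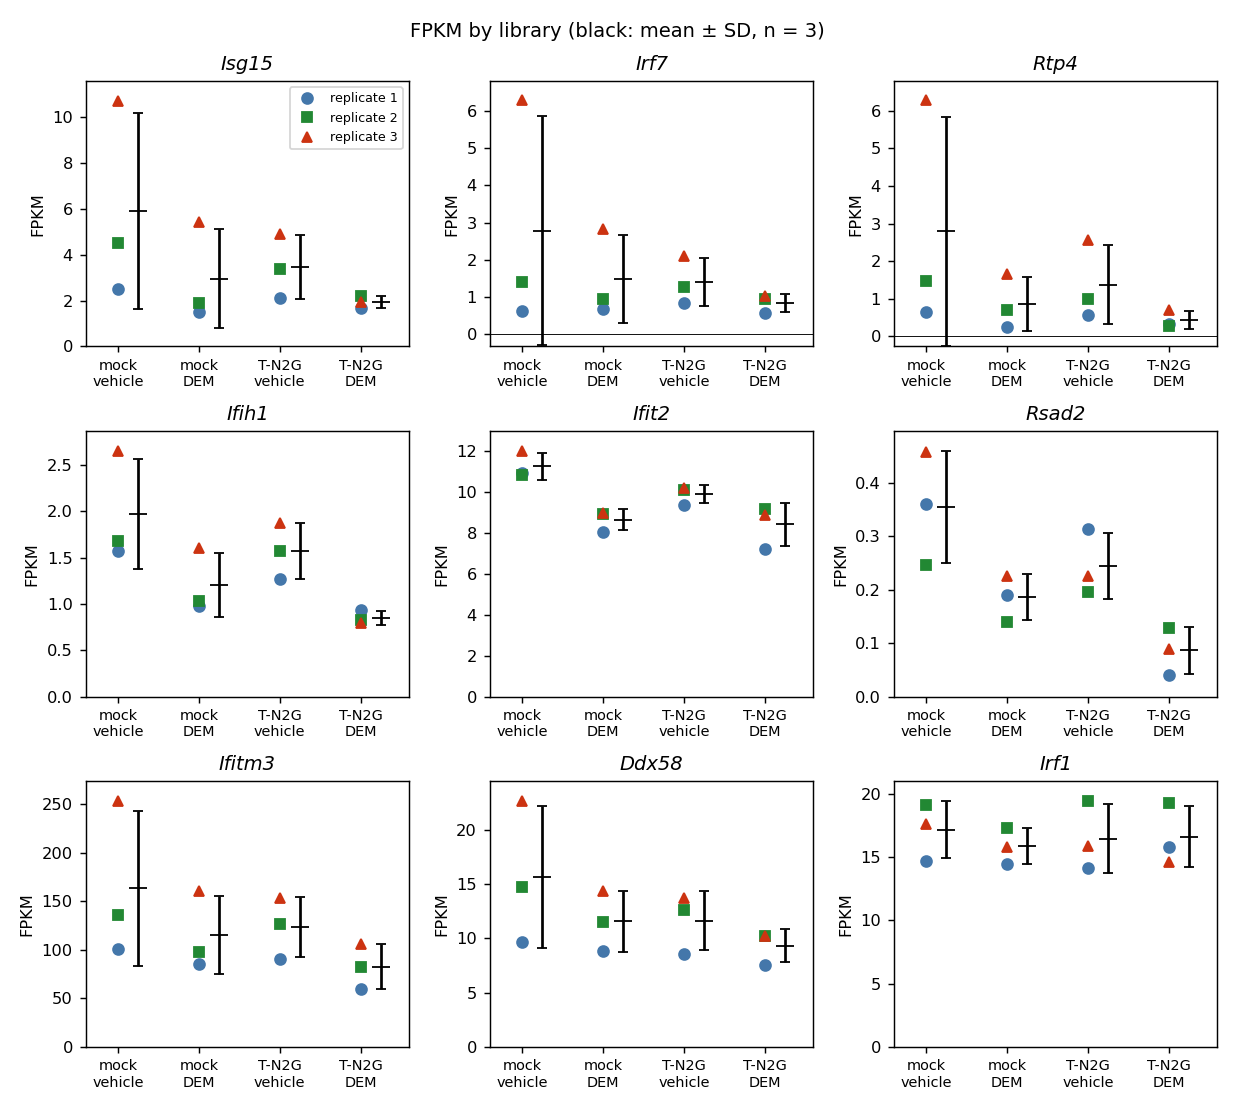
Each panel shows 1 gene, with the 4 groups on the x axis and FPKM on the y axis. Coloured symbols are the 3 libraries of a group and black bars the mean ± SD (n = 3). Replicate 3 of mock vehicle is the highest point in every panel except Irf1, and the DEM libraries of Ifit2 lie below the vehicle libraries of the same cells.

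The difference of the DEM effects between T-N2G and mock cells was tested directly. For none of the 30 genes was it called with edgeR's quasi-likelihood test, without the block (0 at an unadjusted p below 0.05) or with it (1 at an unadjusted p below 0.05). Of all tested genes 0.433% were called, and 2.80% with the block. DESeq2 on the 34 genes and limma on 28 of them called 0. Of all 24318 genes DESeq2 called 82 higher and 15 lower. Limma on log2(FPKM + 1) called 54 higher and 2 lower of 11876. The smallest unadjusted p values belonged to Trim25 (0.24 ± 0.18), Ifit2 (0.15 ± 0.13) and Rsad2 (-0.54 ± 0.53), each with an adjusted p of 1 in the edgeR test. A p above the threshold does not show that the DEM effects were alike. The median over the 30 genes was 0.11, and -0.53 without mock vehicle replicate 3. The 2 DEM effects share no libraries.

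T-N2G was compared with mock cells to ask whether the tethered heterodimer goes with another level of these genes. In this comparison the genes were lower or undecided and none was called higher. With vehicle 0 genes were called by DESeq2 on the 34, limma on 28 of them or edgeR on the 30, and 1 had an unadjusted p below 0.05 with edgeR. Of all tested genes edgeR called 0.00802% lower and 0.305% higher. DESeq2 called 25 lower and 81 higher of all 24318 genes, and limma on log2(FPKM + 1) 0 lower and 20 higher of 11876. With the block 9 were lower (Ifi35, Trim25, Rtp4, Ddx58, Tap1, Ifitm3, Parp9, Ifit1 and Oasl2) and 0 higher, against 3.24% and 3.06% of all tested genes. Under DEM 0 were called, 2 had an unadjusted p below 0.05, and 1.11% of all tested genes were called lower and 2.61% higher. With the block 5 were lower (Ifitm3, Ifi35, Tap1, Parp14 and Ifih1) and 0 higher, against 9.32% and 10.3%. Ifi35, Tap1 and Ifitm3 were lower in both conditions with the block. With each library left out in turn, 0 of the 9 calls with vehicle were kept every time, and 2 of the 5 under DEM (Ifi35 and Ifitm3).

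From mock to T-N2G cells the median log2 fold change was -0.45 with vehicle and -0.46 with DEM over the 30 tested genes, and -0.52 and -0.50 over the 34 with no filter, while the median of all tested genes lay within 0.01 of 0. In the 3 same-number pairs the median difference was -0.15, -0.16 and -0.81 with vehicle and -0.13, -0.10 and -0.73 with DEM, so the pair of replicates 3 differed most. With vehicle 18 genes were lower in all 3 pairs, against 21.7% of tested genes, and with DEM 15, against 24.8%. Without mock vehicle replicate 3 the vehicle median was 0.03, or -0.17 with the block, where 0 genes were called. The count with the block was also 17 when mock vehicle replicate 1 was left out, 14 for T-N2G DEM replicate 3, 3 for T-N2G vehicle replicate 1 and 1 for T-N2G vehicle replicate 3. Under DEM the median was -0.13 without mock DEM replicate 3. The count with the block was 2 without mock DEM replicate 1 or 3 or T-N2G DEM replicate 3, and 13 without mock vehicle replicate 3. In replicates 1 and 2 alone the medians were -0.17 and -0.18 and 0 genes were called in either condition, or 0 with vehicle and 3 with DEM with the block. Here too the counts with libraries left out stand without the share of all tested genes.

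**Figure D5:**
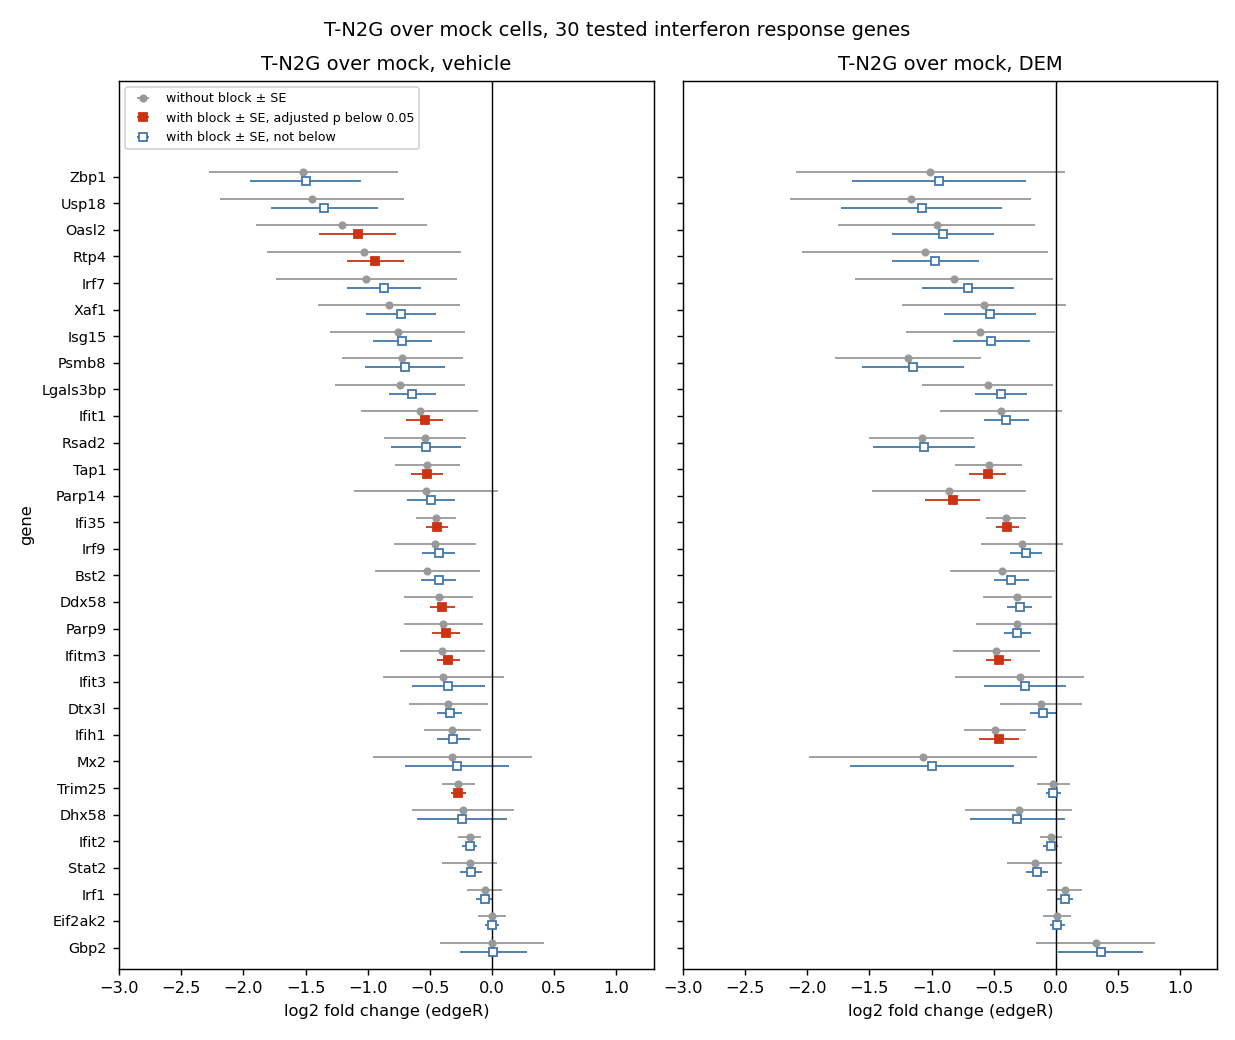
The x axis gives the log2 fold change from mock to T-N2G cells with vehicle (left) and DEM (right) for the 30 tested genes on the y axis, ordered by the value with the block in vehicle. Grey circles are the fit without the block and squares the fit with it (red where the adjusted p is below 0.05), with bars of ± SE. The 9 genes called with vehicle and the 5 called under DEM lie to the left of 0, and the bars without the block are wider.

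Ifi35, which with Nmi forms an interferon-induced complex, was lower in T-N2G cells with the block, and DEM did not move it past the test. It stood at 10.4, 11.4 and 16.1 FPKM in mock vehicle and 10.7, 12.2 and 13.4 in mock DEM, and at 8.33, 9.23 and 10.2 in T-N2G vehicle and 8.90, 8.69 and 9.93 in T-N2G DEM. All 6 T-N2G libraries lay below all 6 mock libraries. With vehicle T-N2G over mock was log2 -0.45 ± 0.16 (adjusted p = 0.551), or -0.44 ± 0.09 with the block (adjusted p = 0.00694). Under DEM it was log2 -0.40 ± 0.16 (adjusted p = 0.235), or -0.39 ± 0.09 with the block (adjusted p = 0.00579). The call with the block was kept in each of 12 leave-outs under DEM, and with vehicle it was lost without mock vehicle replicate 3 (adjusted p = 0.0929) or T-N2G vehicle replicate 3 (0.0735).

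Ifitm3 and Tap1, whose values are given above, were the others lower in both conditions with the block. For Ifitm3 the vehicle difference was log2 -0.40 ± 0.34 (adjusted p = 0.978), or -0.35 ± 0.09 with the block (adjusted p = 0.0316). Under DEM it was log2 -0.48 ± 0.35 (adjusted p = 0.612), or -0.46 ± 0.10 with the block (adjusted p = 0.0032). With vehicle and without the block it was 0.06 when mock vehicle replicate 3 was left out, while under DEM the call with the block was kept in each of 12 leave-outs. For Tap1 the vehicle difference was log2 -0.52 ± 0.26 (adjusted p = 0.824), or -0.52 ± 0.13 with the block (adjusted p = 0.0256). The difference under DEM was log2 -0.54 ± 0.27 (adjusted p = 0.385), or -0.55 ± 0.15 with the block (adjusted p = 0.0136), and 3 of 3 pairs were lower in each.

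With vehicle, Trim25 stood at 11.4, 12.5 and 15.8 FPKM in mock and 10.3, 9.86 and 12.8 in T-N2G cells, a difference of log2 -0.27 ± 0.13 (adjusted p = 0.801), or -0.27 ± 0.06 with the block (adjusted p = 0.0141). Under DEM, with 11.2, 12.4 and 13.6 and 11.1, 12.7 and 12.8 FPKM, it was -0.02 ± 0.13. Ddx58 with vehicle differed by log2 -0.43 ± 0.28 (adjusted p = 0.934), or -0.40 ± 0.10 with the block (adjusted p = 0.0201), and Parp9 by log2 -0.39 ± 0.32 (adjusted p = 0.974), or -0.37 ± 0.11 with the block (adjusted p = 0.042). For Rtp4 the vehicle difference was log2 -1.03 ± 0.78 (adjusted p = 0.963), or -0.94 ± 0.23 with the block (adjusted p = 0.0186), for Ifit1 log2 -0.58 ± 0.47 (adjusted p = 0.974), or -0.54 ± 0.15 with the block (adjusted p = 0.0466), and for Oasl2 log2 -1.21 ± 0.69 (adjusted p = 0.88), or -1.08 ± 0.31 with the block (adjusted p = 0.0484). Without mock vehicle replicate 3 the differences of these 3 genes were 0.37, 0.10 and 0.21 in the fit without the block. For Ifit2, whose T-N2G libraries all lay below the mock libraries with vehicle, the difference was log2 -0.18 ± 0.09 (adjusted p = 0.801), or -0.18 ± 0.06 with the block (adjusted p = 0.0738). Under DEM, Ifih1 differed by log2 -0.49 ± 0.25 (adjusted p = 0.392), or -0.46 ± 0.16 with the block (adjusted p = 0.0471), with the 3 T-N2G libraries below the 3 mock libraries. Parp14 differed by log2 -0.86 ± 0.62 (adjusted p = 0.609), or -0.83 ± 0.22 with the block (adjusted p = 0.0143). Rsad2 had the smallest unadjusted p under DEM (log2 -1.08 ± 0.42, adjusted p = 0.23) and was not called with the block (adjusted p = 0.0792).

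All 3 T-N2G libraries lay below all 3 mock libraries for Ifit2 and Ifi35 with vehicle, where 5.38% of tested genes did so. Under DEM this held for Oasl2, Ifih1, Rsad2 and Ifi35, where 9.66% did. All 3 DEM libraries lay below all 3 vehicle libraries for Ifit2 and Rsad2 in mock cells, against 16.3% of tested genes. In T-N2G cells this held for Ifit2, Ifih1, Mx2, Rsad2, Usp18 and Xaf1, against 15.7%. Wholly above lay 0 of the 30 genes in each of these 4 comparisons. Of the 12469 tested genes 594, 1260, 2141 and 2255 did, in the same order. Ifit3, Irf1, Irf9, Stat2, Dhx58, Bst2, Psmb8 and Lgals3bp were called in neither fit in any of the 4 comparisons of groups. They include the STAT2 and IRF9 subunits of ISGF3. The share of all tested genes without a call is not given, so whether this is more or fewer than in other genes was not tested. No gene was higher in all 3 pairs of T-N2G over mock with vehicle (21.2% of tested genes were) or under DEM (23.8%), or of DEM over vehicle in mock (32.6%) or T-N2G cells (33.7%).

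A wider list of 70 interferon-induced genes, none of them among the 34, had 57 tested. With DEM 4 fell and 0 rose in mock cells, and 5 fell and 0 rose in T-N2G cells, near the 6.18% and 7.55% of all tested genes that were called lower. With the block 25 fell and 4 rose in mock cells, against 21.9% and 20.9% of all tested genes, and 21 fell and 3 rose in T-N2G cells, against 22.2% and 22.8%. The median log2 fold change was -0.22 in each. Between T-N2G and mock cells 0 were called in either condition with edgeR, with 2 at an unadjusted p below 0.05 with vehicle and 7 under DEM. DESeq2 called 0 with vehicle and 1 higher under DEM. Of the 24318 genes of the table DESeq2 called 81 higher and 25 lower with vehicle, and 443 higher and 251 lower under DEM. With the block 5 were lower and 0 higher with vehicle, against 3.24% and 3.06% of all tested genes, and 15 lower and 2 higher under DEM, against 9.32% and 10.3%.

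Cxcl10, a chemokine that draws T cells, fell from 5.83, 5.58 and 8.06 to 3.00, 2.15 and 4.63 FPKM in mock cells (log2 -0.99 ± 0.24, adjusted p = 0.0217) and from 5.19, 5.83 and 6.36 to 2.74, 2.33 and 2.94 in T-N2G cells (log2 -1.12 ± 0.25, adjusted p = 0.0107). The mock call was lost without mock vehicle replicate 3 (0.0828), mock DEM replicate 1 (0.0753) or mock DEM replicate 2 (0.0716), with adjusted p in brackets. Pnpt1, a mitochondrial RNA-degrading enzyme, fell from 23.1 ± 1.23 to 18.2 ± 0.482 FPKM in mock cells (log2 -0.35 ± 0.06, adjusted p = 0.00546) and from 21.1 ± 0.939 to 16.7 ± 0.919 in T-N2G cells (log2 -0.34 ± 0.06, adjusted p = 0.00458). Mov10, an RNA helicase, fell in both (log2 -0.51 ± 0.12, adjusted p = 0.0169, and log2 -0.46 ± 0.12, adjusted p = 0.0205), Ly6e in mock cells (log2 -0.45 ± 0.10, adjusted p = 0.013) and Slfn5 in T-N2G cells (log2 -0.71 ± 0.19, adjusted p = 0.0226). The Mov10 call was lost in mock cells without mock vehicle replicate 2 (0.0528), mock vehicle replicate 3 (0.0608), mock DEM replicate 1 (0.0661) or mock DEM replicate 2 (0.0554), and in T-N2G cells without T-N2G vehicle replicate 2 (0.0622), T-N2G DEM replicate 1 (0.0764) or T-N2G DEM replicate 3 (0.0632). The Slfn5 call was lost without T-N2G vehicle replicate 1 (0.0619), T-N2G vehicle replicate 2 (0.0657), T-N2G DEM replicate 2 (0.0752) or T-N2G DEM replicate 3 (0.0687). The most abundant gene of the list was B2m, the light chain of class I molecules, with 566, 543 and 929 FPKM in mock vehicle, 599.8, 553 and 880.4 in mock DEM, 563, 537 and 757 in T-N2G vehicle and 619, 589.7 and 864 in T-N2G DEM. Replicate 3 was its highest library in every group.

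Markers of cell types were checked against the label of fibroblasts. Fibroblast markers (10 genes) summed to 3760 to 4030 FPKM in mock vehicle, 3500 to 3840 in mock DEM, 3480 to 3990 in T-N2G vehicle and 2850 to 3280 in T-N2G DEM. Of the 9 tested, DEM called 0 in mock cells, where 6.18% of all tested genes were called lower and 7.76% higher. In T-N2G cells 2 were called lower and 0 higher, against 7.55% and 10.1%. With the block 6 were lower and 1 higher in mock cells, and 8 lower and 1 higher in T-N2G cells, against 21.9% lower and 20.9% higher (mock) and 22.2% and 22.8% (T-N2G) of all tested genes. Between T-N2G and mock cells 0 were called without the block. With the block 2 were higher and 0 lower with vehicle, against 3.06% and 3.24% of all tested genes. Under DEM 1 was higher and 4 lower with the block, against 10.3% and 9.32%. Leukocyte markers (8 in the table) summed to 4.38 to 5.39 FPKM in mock vehicle, 4.33 to 4.55 in mock DEM, 4.15 to 5.0 in T-N2G vehicle and 3.36 to 4.54 in T-N2G DEM, with Cd3e at 0 in every library. Endothelial markers summed to 0.976 to 3.04, epithelial markers to 0.136 to 0.455 and neuronal markers to 13.8 to 23, with Rbfox3 at 0. The marker list of plasmacytoid dendritic cells, which make much interferon, holds Bst2 itself. Its 4 genes summed to 55.1 to 127 FPKM in mock vehicle and 58.7 to 114 in mock DEM. In T-N2G cells the sum was 52.4 to 76.4 with vehicle and 54.7 to 75.0 with DEM. Bst2 alone read 34.2 to 105 FPKM over the libraries. Of the 4 genes 2 were tested, Bst2 among them, and Siglech was at 0. The T-N2G and mock cells differed in Y-linked genes, 4 of which summed to 3.45 to 5.17 FPKM in mock and 6.37 to 7.84 in T-N2G libraries. Under DEM 3 of the 4 were called higher (Ddx3y, log2 0.84 ± 0.11, adjusted p = 0.000612, and Eif2s3y and Uty), against 2.61% of all tested genes. The Eif2s3y call was lost without mock DEM replicate 2 (adjusted p = 0.0915) or 3 (0.133), or T-N2G DEM replicate 1 (0.0543), 2 (0.071) or 3 (0.121). The Uty call was lost without the same libraries (0.142, 0.152, 0.118, 0.079 and 0.0886) or T-N2G vehicle replicate 3 (0.0523). Ddx3y was also called with vehicle (log2 0.70 ± 0.11, adjusted p = 0.0154), a call lost without mock vehicle replicate 2 (0.0823), mock vehicle replicate 3 (0.105), T-N2G vehicle replicate 1 (0.0836) or T-N2G vehicle replicate 3 (0.084). The part of the Y-linked, fibroblast and other marker differences in the results on interferon response genes was not tested.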

How the data were processed

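Strand-specific polyadenylated RNA was sequenced in 12 libraries. Per the submitters' processing notes the tools include TopHat2 2.0.8b and Cuffdiff 2.1.1, and the build is mm9. The authors deposited for each gene and library an estimated count of fragments, not normalized, and an FPKM value, normalized for length and library by the authors. Library totals were 18863560 to 23095692 fragments, and 98.3% of the estimated counts were whole. They were rounded here and tested with edgeR 4.0.16 in R 4.3.3 (TMM, filterByExpr with a minimum count of 10, quasi-likelihood, all 12 libraries, 1 factor for the 4 groups). SE was taken as the absolute log2 fold change over the square root of F. Pair differences are of log2 CPM with a prior count of 2. Genes listed here were chosen with earlier results of these data known, and so were the tests.

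Libraries with the same replicate number were paired by the data, since the deviations from group means correlated positively in all 18 same-number pairs (0.361 to 0.631). The 36 other pairs correlated negatively (-0.422 to -0.00363). Deviations from a group mean cancel within the group, so these negative values follow in part from the positive ones and are not separate evidence. The labels do not say what the numbers stand for. Alternatives were this block, DESeq2 1.42.0, limma 3.58.1 on log2(FPKM + 1) or log2(FPKM + 0.1), no filter, replicates 1 and 2 alone, and each library left out. DESeq2 was run on all 34 genes. Of the 30 tested with edgeR, Mx2 and Zbp1 got no adjusted p from DESeq2 for DEM over vehicle in either kind of cell. They could not be called there. The limma fits took genes with a mean of at least 0.5 FPKM in a group, 28 of the 34. Rsad2, Mx2, Dhx58, Oas1a, Mx1 and Ifi44 fell below it. Psmb9, which edgeR did not test, was among the 28. All 34 genes are named with a level, and full statistics are given for those called in a comparison in either fit, or otherwise for the 3 smallest p. From the other lists the most abundant gene, up to 4 called genes per comparison, and the interferon receptor, its kinases, Irf3 and the interferon genes are named. The edgeR fit without the block was tested on simulated counts for T-N2G over mock with vehicle. These counts held no shift shared by replicate number, and the fit with the block was not tested in this way. Some genes of these lists are not reported here.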

Additional observations from a re-analysis of the deposited data

How the results depend on the processing

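Counts of called interferon response genes depended on the replicate block and, with the block, on single libraries. With the replicate block the genes called lower were 9 for T-N2G over mock with vehicle, 5 for T-N2G over mock under DEM, 18 for DEM in mock cells and 15 for DEM in T-N2G cells, against 0, 0, 1 and 2 without it. The block left 0 genes called for the difference of the DEM effects. DESeq2 called 2 lower and 0 higher with DEM in mock cells and the same in T-N2G cells. Of the 24318 genes of the table it called 951 lower and 1146 higher in mock cells. In T-N2G cells it called 1073 lower and 1381 higher. For DEM in T-N2G cells limma called 0 on log2(FPKM + 1), against 892 lower and 1236 higher of 11876 genes. On log2(FPKM + 0.1) limma called 1, and the share of all genes is not given. The medians were -0.25 and -0.38. Rsad2 lay below the 0.5 FPKM that limma required, so limma did not test it. In replicates 1 and 2 alone, 0 genes were called lower with DEM in mock or in T-N2G cells. With the block there were 10 lower in each, 1 higher in T-N2G cells (Trim25) and 3 lower for T-N2G over mock under DEM. For DEM in T-N2G cells the medians in replicates 1 and 2 were -0.33, or -0.32 with the block. For the difference of the DEM effects they were -0.02 and -0.03.

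With each library left out (with the block, an alternative added after seeing the data), the counts called lower without the block ranged from 0 to 0 in both T-N2G comparisons and from 0 to 2 in both DEM comparisons. With the block they ranged from 0 to 17 (T-N2G over mock, vehicle), 2 to 13 (under DEM), 7 to 22 (DEM in mock cells) and 6 to 17 (DEM in T-N2G cells, with 0 to 1 higher). For these fits, and for replicates 1 and 2 alone, the share of all tested genes called is not given. The medians ranged from -0.73 to 0.03 for T-N2G over mock with vehicle (-0.63 to -0.17 with the block), -0.64 to -0.13 under DEM (-0.56 to -0.16), -0.92 to -0.03 for DEM in mock cells (-0.67 to -0.24), -0.75 to -0.40 for DEM in T-N2G cells (-0.66 to -0.24), and -0.53 to 0.34 for the difference (-0.20 to 0.24). The reversals among called genes all came without mock vehicle replicate 3. For DEM in mock cells Ifit1 was then 0.03 (lowest value over the leave-outs -1.03), Oasl2 0.23 (-1.69) and Irf7 0.55 (-1.78, and 0.02 with the block). For T-N2G over mock with vehicle Ifit1 was 0.10 (-0.98), Ifitm3 0.06 (-0.66), Oasl2 0.21 (-1.68) and Rtp4 0.37 (-1.84). The cause was not tested. Genes below 1 FPKM, such as Rsad2, Zbp1 and Mx2, rest on few fragments per library. Oas1a, Mx1, Ifi44 and Psmb9 were too shallow for edgeR's filter on low counts.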
